A study of Mus musculus with 12 samples.

Results

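The Gata3 locus was examined by ATAC-seq, which counts the insertions of a transposase into open chromatin, in thymic iNKT1, iNKT2 and iNKT17 cells. The locus was taken as Gata3 (ENSMUSG00000015619.10, minus strand, chr2:9857078-9890034 in mm10, GENCODE vM21) and its flanks of 50 kb. Every region of the deposited table that overlapped it was kept. This gave 16 regions of 500 bp out of 63309. Invariant NKT (iNKT) cells are T cells that recognise lipids on CD1d, and the study asked how loss of Hivep3, a large zinc finger protein, alters the chromatin of their 3 thymic subsets. There were 2 libraries per subset and genotype, 12 in all, from untreated mice of 8 to 9 weeks on the C57BL/6 background that were either wild type (C57BL/6) or Hivep3-/-. Cells of pooled thymi were sorted into subsets, put together for the transposition and sorted again, as ICOS- CD138- (iNKT1), ICOS+ CD138- (iNKT2) and ICOS+ CD138+ (iNKT17) cells. The labels number the libraries as mouse 1 and 2 while the protocol pools thymi, so the p-values below measure the spread between these libraries. No promoter or Cre line is given for the Hivep3-/- mice, and the number of thymi in a pool is not stated in the sources used here.

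GATA3 is a zinc finger transcription factor of the GATA family that binds the core motif GATA. It is needed at several steps of T cell development, including commitment to the T lineage and the CD4 fate, and it is the master regulator of type 2 helper T cells, where it opens and activates the cytokine genes Il4, Il5 and Il13. Among thymic iNKT cells it is known for its high level in iNKT2 cells, which make IL-4, while T-bet is the corresponding factor of iNKT1 cells.

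All 16 regions lay between 10.8 kb upstream and 30.1 kb downstream of the start of Gata3-201 (taken here as the main transcript, with its start at base 9878600). Regions are named here by the distance of their centre from that start, negative for upstream. Those at -10.8, -5.8, -5.0 and -1.1 kb lay upstream of Gata3-201 but within the span of Gata3 transcripts that start further upstream. The -10.8 kb region also covered an exon of the overlapping gene 9230102O04Rik. The -5.0 kb region covered exons and annotated coding sequence of 4930412O13Rik and 9230102O04Rik. The promoter region, chr2:9878387-9878886, held the start of Gata3-201 and part of its first exon and 5′ UTR, and it also covered an exon of Gm13256. The regions at +2.5, +5.7, +6.6, +7.2, +11.0, +16.1, +17.7 and +18.5 kb were intronic. The remaining regions, at +25.9, +26.5 and +30.1 kb, were intergenic, downstream of the end of the gene.

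The promoter and 2 regions called between subsets are shown as sequence, since the results below turn on them. Each is on the strand of Gata3, 5′ to 3′, in GRCm38.p6 (the build of mm10). The promoter stretch is the part of its region just upstream of the Gata3-201 start (chr2:9878601-9878800), and the others are the central 300 bases of the +16.1 kb (chr2:9862374-9862673) and +30.1 kb regions (chr2:9848334-9848633). Capitals mark matches on either strand to the motif letters of GATA factors (GATAA), of Runt factors (AACCACA), of T-box factors (GGTGTGA), of TCF factors (TCAAAG) and of ETS factors (GGAAGT).
Promoter of Gata3: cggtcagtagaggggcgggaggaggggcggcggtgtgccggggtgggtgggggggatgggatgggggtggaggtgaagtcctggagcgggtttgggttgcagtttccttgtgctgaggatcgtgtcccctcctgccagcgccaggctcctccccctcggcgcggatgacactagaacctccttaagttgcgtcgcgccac
Region at +16.1 kb: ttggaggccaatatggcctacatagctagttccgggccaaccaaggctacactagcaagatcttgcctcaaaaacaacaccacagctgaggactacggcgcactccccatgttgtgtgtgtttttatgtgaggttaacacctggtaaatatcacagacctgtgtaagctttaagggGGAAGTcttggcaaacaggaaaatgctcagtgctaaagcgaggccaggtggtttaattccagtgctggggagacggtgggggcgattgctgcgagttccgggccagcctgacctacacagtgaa
Region at +30.1 kb: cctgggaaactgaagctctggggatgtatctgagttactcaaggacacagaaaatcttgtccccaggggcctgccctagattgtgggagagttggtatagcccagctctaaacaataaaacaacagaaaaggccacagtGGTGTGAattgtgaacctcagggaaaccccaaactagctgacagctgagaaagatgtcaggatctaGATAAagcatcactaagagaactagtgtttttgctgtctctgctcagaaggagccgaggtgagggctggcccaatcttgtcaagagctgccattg
The promoter stretch held none of these letters. The +16.1 kb stretch held an ETS match, and the +30.1 kb stretch a T-box and a GATA match.

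Over the whole 500 bp, 6 of the 16 regions (37.5%) held GATAA, against 40.8% of all 63309 regions. These were the regions at -5.0, +5.7, +18.5, +25.9, +26.5 and +30.1 kb, so that every intergenic region of the locus held it. The Runt letters AACCACA were in 0 of 16 regions against 17.4% of all regions. Matches to ETS letters were in 9 regions (56.2%, all regions 38.1%), to T-box letters in 2 (12.5%, all regions 8.6%) and to TCF letters in 4 (25.0%, all regions 30.5%). Other letters searched on both strands included those of bZIP (TGANTCA, 5 regions, 31.2% against 15.9% of all regions), STAT (TTCNNNGAA, 5 regions, 31.2% against 13.4%), NFAT (TTTCCA, 8 regions, 50.0% against 33.7%), Egr (GTGGGNG, 8 regions, 50.0% against 43.6%), the E box (CAGNTG, 10 regions, 62.5% against 73.4%) and NF-kB (its short consensus, 9 regions, 56.2% against 58.9%). These are letter matches with no test, and a match is not a bound site. The promoter region had a GC content of 62.4% against a median of 50.0% over all regions, and 40.6% of the bases of the +16.1 kb region and 33.6% of those of the +17.7 kb region were repeat-masked, against a median of 10.0%.

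Values are log2 of the normalized insertions per kb, and a region was taken as accessible in a group where the mean of its linear values was at least 5. By that rule 14 of the 16 regions were accessible in C57BL/6 and 13 in Hivep3-/- iNKT1 cells, 12 in iNKT2 cells of either genotype and 15 in iNKT17 cells of either genotype. In all 6 groups 11 regions were accessible, and each of the 16 was so in at least 1 group. The labelled subsets were checked with 6 marker genes each. The iNKT1 genes were most accessible in iNKT1 cells for 5 of 6 in either genotype (Il2rb was highest in iNKT17 cells). The iNKT2 genes were so in iNKT2 cells for 6 of 6 in C57BL/6 and 5 of 6 in Hivep3-/- mice, and the iNKT17 genes in iNKT17 cells for 6 of 6 in either genotype. Markers of other cells were also read. The summed level of the myeloid genes was 61.5 and 58.0 in iNKT1, 27.3 and 25.8 in iNKT2 and 17.1 and 16.9 in iNKT17 cells (C57BL/6, then Hivep3-/-; insertions per kb over the 3 of 4 genes with a region, none at Csf1r). Most of this fall was at 1 region of Itgam, at 33.9 and 30.6 in iNKT1, 2.16 and 0.247 in iNKT2 and 0.156 and 0.143 in iNKT17 cells. Spi1 fell less, from 25.5 and 25.8 to 18.5 and 16.2 and to 13.5 and 13.3. Lyz2 went the other way, lowest in iNKT1 cells (2.13 and 1.61, against 6.61 and 9.38, and 3.47 and 3.42). The summed level of the B cell genes ranged from 69.5 to 83.6 over the 6 groups (3 of 4 genes, none at Ms4a1), and that of the double-positive thymocyte genes from 72.2 to 92.8 (2 of 4 genes, none at Rag1 or Cd8b1). Their part in the differences between subsets was not tested. Of 21 regions at Hivep3 itself 0 were lost in every Hivep3-/- subset, so the table does not check the deletion. Sequencing depth cannot be read from the normalized values, but a shallower library holds fewer different low values. Below the median their number ran from 73 to 491, with the Hivep3-/- iNKT17 libraries at 85 and 73. The Hivep3-/- iNKT2 libraries were next, at 91 and 118, against 219 and 159 in C57BL/6 iNKT2 libraries.

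The regions at and just upstream of the Gata3-201 start were open in every subset and genotype. The promoter had log2 levels of 6.27 and 6.16 in C57BL/6 and 6.22 and 6.19 in Hivep3-/- iNKT1 libraries. They were 6.62 and 6.47 against 6.33 and 6.37 in iNKT2 libraries, and 6.45 and 6.39 against 6.33 and 6.31 in iNKT17 libraries. Its highest library was C57BL/6 iNKT2 replicate 1, and its whole range over 12 libraries was 0.46. The -1.1 kb region was the highest of the locus, at 6.71 and 6.54 in C57BL/6 and 6.69 and 6.49 in Hivep3-/- iNKT1 libraries. It stood at 6.61 and 6.41 against 6.49 and 6.49 in iNKT2, and 6.42 and 6.30 against 6.54 and 6.44 in iNKT17 libraries. Its range was 0.41. In C57BL/6 mice both iNKT1 libraries were above both iNKT17 libraries, by 0.26 ± 0.10 SE (limma adjusted p = 0.0382), and the iNKT2 libraries overlapped with both. Without C57BL/6 iNKT1 replicate 1 this difference was 0.18 (limma adjusted p = 0.268) and without C57BL/6 iNKT17 replicate 2 it was 0.21 (0.203). In Hivep3-/- mice the libraries of the 3 subsets overlapped. The mean level over all 12 libraries stood at the percentile 93.0 of all regions for the -1.1 kb region and 91.3 for the promoter, and at 75.4 for the -10.8 kb region.

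The other regions within 1000 bp of the start of another Gata3 transcript were lower, and of these the +5.7 kb region varied the most. The -10.8 kb region, 337 bp from the start of Gata3-203, ranged from 4.79 to 5.54 over the 12 libraries and was highest in the Hivep3-/- iNKT17 libraries, at 5.54 and 5.33. The +2.5 kb region, 500 bp from the start of Gata3-206, ranged from 5.04 to 5.66. The +5.7 kb region, 509 bp from the start of Gata3-205, ranged from 3.62 to 4.84, with the Hivep3-/- iNKT1 libraries highest at 4.84 and 4.66 and the Hivep3-/- iNKT2 libraries lowest at 3.78 and 3.62. Between group means these 5 start-near regions spanned from 0.26 to 1.05. The 4 regions that differed at 3-fold or more spanned from 2.17 to 4.17, a width that follows from their being picked for such a difference. The remaining regions spanned from 0.24 at -5.0 kb to 1.72 at +17.7 kb.

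**Figure D1:**
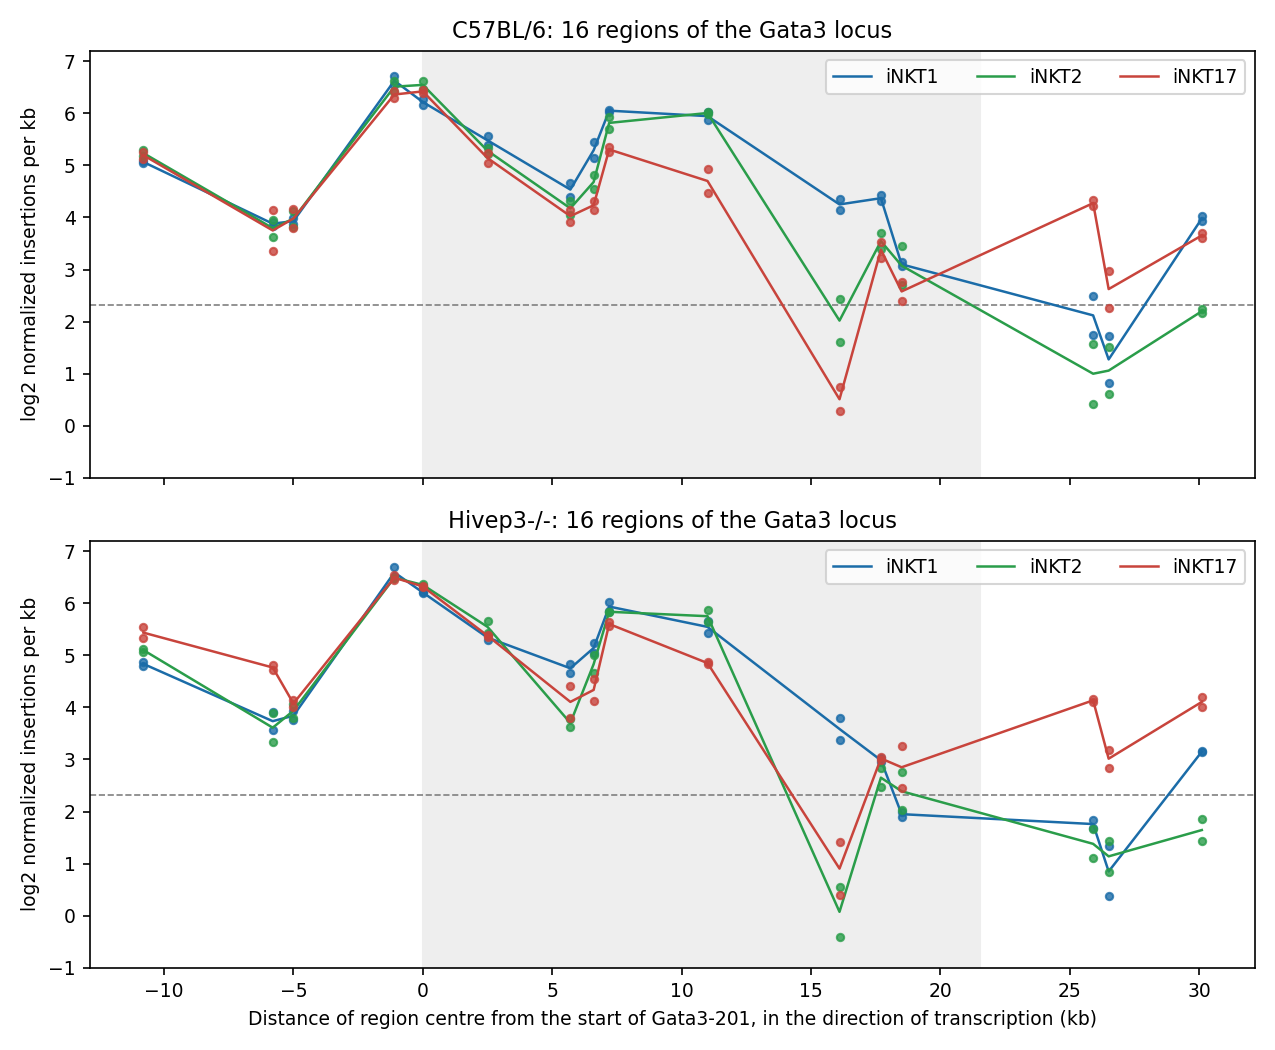
Log2 normalized insertions per kb (vertical axis) of the 16 Gata3 regions against the distance of the region's centre from the start of Gata3-201 in kb, in the direction of transcription, for C57BL/6 (top) and Hivep3-/- cells (bottom). Points are single libraries, lines join the means of 2 libraries, the grey band is the span of Gata3-201 and the dashed line is 5 insertions per kb; the lines of the 3 subsets lie together at the promoter and separate at +16.1, +25.9 and +30.1 kb.

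The first family of comparisons asked which regions of the locus differed between subsets of the same genotype. A region was tested where either group was accessible, and called at an adjusted p under 0.1 and a change of 3-fold or more in the fit across all regions (limma, Benjamini-Hochberg). The intronic +16.1 kb region was open in iNKT1 cells, and those at +25.9 and +26.5 kb, downstream of the gene, in iNKT17 cells, while the +30.1 kb region was open in both and lower in iNKT2 cells. In C57BL/6 cells 2 of 14 tested regions were called between iNKT1 and iNKT2 (16.0% of all tested regions), 2 of 16 between iNKT1 and iNKT17 (20.5%) and 1 of 15 between iNKT2 and iNKT17 (16.2%). The counts in Hivep3-/- cells were 1 of 14 (17.3%), 3 of 16 (19.3%) and 3 of 15 (15.6%). The share of the locus was thus below that of all regions in every comparison except iNKT2 against iNKT17 in Hivep3-/- cells. With 14 to 16 tested regions a single call moves such a share widely, and the shares were not tested against each other.

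The +16.1 kb region had log2 levels of 4.35 and 4.15 in C57BL/6 and 3.79 and 3.38 in Hivep3-/- iNKT1 libraries. In iNKT2 libraries the levels were 2.44 and 1.60 in C57BL/6 mice against -0.40 and 0.55 in Hivep3-/- mice, and in iNKT17 libraries 0.28 and 0.74 against 1.41 and 0.40. All 4 iNKT1 libraries were above all 8 others, and the C57BL/6 iNKT2 libraries came next. In C57BL/6 cells it was 4.70-fold higher in iNKT1 than in iNKT2 cells (log2 2.23 ± 0.43 SE, n = 2 libraries per group, limma adjusted p = 0.000762) and 13.4-fold higher in iNKT1 than in iNKT17 cells (3.74 ± 0.43, limma adjusted p = 7.21e-06). Among Hivep3-/- cells it was 11.4-fold higher in iNKT1 than in iNKT2 cells (3.51 ± 0.43, limma adjusted p = 1.58e-05) and 6.40-fold higher than in iNKT17 cells (2.68 ± 0.43, limma adjusted p = 0.000147). It entered these tests through iNKT1 cells alone, and between iNKT2 and iNKT17 cells it was not tested, as neither group reached 5 insertions per kb in either genotype. Without C57BL/6 iNKT2 replicate 2 it did, and was then called 1.93 higher in C57BL/6 iNKT2 cells (limma adjusted p = 0.0101).

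The +25.9 kb region was highest in iNKT17 cells. Its levels were 4.33 and 4.22 in C57BL/6 and 4.17 and 4.10 in Hivep3-/- iNKT17 libraries. They were 2.50 and 1.74 against 1.69 and 1.83 in iNKT1 libraries, and 1.58 and 0.42 against 1.66 and 1.10 in iNKT2 libraries. The iNKT17 libraries did not overlap with the others. Every iNKT1 library was above every iNKT2 library, though narrowly, with the closest at 1.69 and 1.66. The region was under 5 insertions per kb in every iNKT1 and iNKT2 group. It was therefore not tested between these subsets and entered the tests through iNKT17 cells alone. In C57BL/6 cells the level was 4.46-fold higher in iNKT17 than in iNKT1 cells (log2 iNKT1 minus iNKT17 -2.16 ± 0.37 SE, limma adjusted p = 0.000226) and 9.69-fold higher than in iNKT2 cells (iNKT2 minus iNKT17 -3.28 ± 0.37, limma adjusted p = 8.96e-06). In Hivep3-/- cells these differences were -2.38 ± 0.37 (5.19-fold, limma adjusted p = 0.000109) and -2.75 ± 0.37 (6.74-fold, limma adjusted p = 4.14e-05).

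The neighbouring +26.5 kb region was also highest in iNKT17 cells, at a lower level, and it too entered the tests through iNKT17 cells alone. It stood at 2.98 and 2.27 in C57BL/6 and 2.84 and 3.19 in Hivep3-/- iNKT17 libraries, between 0.37 and 1.73 in the 4 iNKT1 libraries and between 0.61 and 1.51 in the 4 iNKT2 libraries. The 4 iNKT17 libraries were the highest, with C57BL/6 iNKT17 replicate 2 the lowest of them. It was called in Hivep3-/- cells, at 4.49-fold between iNKT17 and iNKT1 cells (log2 iNKT1 minus iNKT17 -2.17 ± 0.47 SE, limma adjusted p = 0.00148) and 3.68-fold between iNKT17 and iNKT2 cells (-1.88 ± 0.47, limma adjusted p = 0.00457). In C57BL/6 cells the differences were below 3-fold, at -1.35 ± 0.47 (limma adjusted p = 0.026) and -1.56 ± 0.47 (limma adjusted p = 0.0139). These sizes hung on single libraries. Without C57BL/6 iNKT1 replicate 1 the first was called at -1.80, without C57BL/6 iNKT2 replicate 1 the second at -2.01, and without C57BL/6 iNKT17 replicate 2 both, at -1.71 and -1.92. Without C57BL/6 iNKT1 replicate 2 the first had an adjusted p of 0.202, without C57BL/6 iNKT2 replicate 2 the second had 0.131, and without C57BL/6 iNKT17 replicate 1 neither was tested (limma). Without Hivep3-/- iNKT2 replicate 2 the -1.88 fell under 3-fold, to -1.57.

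The +30.1 kb region had its lowest levels in iNKT2 cells. The levels were 2.24 and 2.16 in C57BL/6 while Hivep3-/- iNKT2 libraries had 1.44 and 1.85. They were 4.02 and 3.94 against 3.14 and 3.16 in iNKT1 libraries, and 3.61 and 3.70 against 4.01 and 4.20 in iNKT17 libraries. No iNKT2 library reached the levels of the other subsets, and both iNKT2 groups were under 5 insertions per kb, so it was tested against iNKT2 cells through the other subset alone. In C57BL/6 cells it was 3.44-fold higher in iNKT1 than in iNKT2 cells (log2 1.78 ± 0.20 SE, limma adjusted p = 1.11e-05) and 2.74-fold higher in iNKT17 than in iNKT2 cells (iNKT2 minus iNKT17 -1.46 ± 0.20, limma adjusted p = 5.58e-05, under the 3-fold limit). In Hivep3-/- cells these differences were 1.50 ± 0.20 (2.83-fold, limma adjusted p = 3.66e-05, past 3-fold at 1.70 without Hivep3-/- iNKT2 replicate 2) and -2.46 ± 0.20 (5.50-fold, limma adjusted p = 7.47e-07). Between iNKT1 and iNKT17 cells the order turned with genotype. C57BL/6 iNKT1 libraries were above C57BL/6 iNKT17 libraries with a difference of 0.33 ± 0.20 (limma adjusted p = 0.2). Hivep3-/- iNKT1 libraries were below Hivep3-/- iNKT17 libraries with -0.96 ± 0.20 (limma adjusted p = 0.00137).

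**Figure D2:**
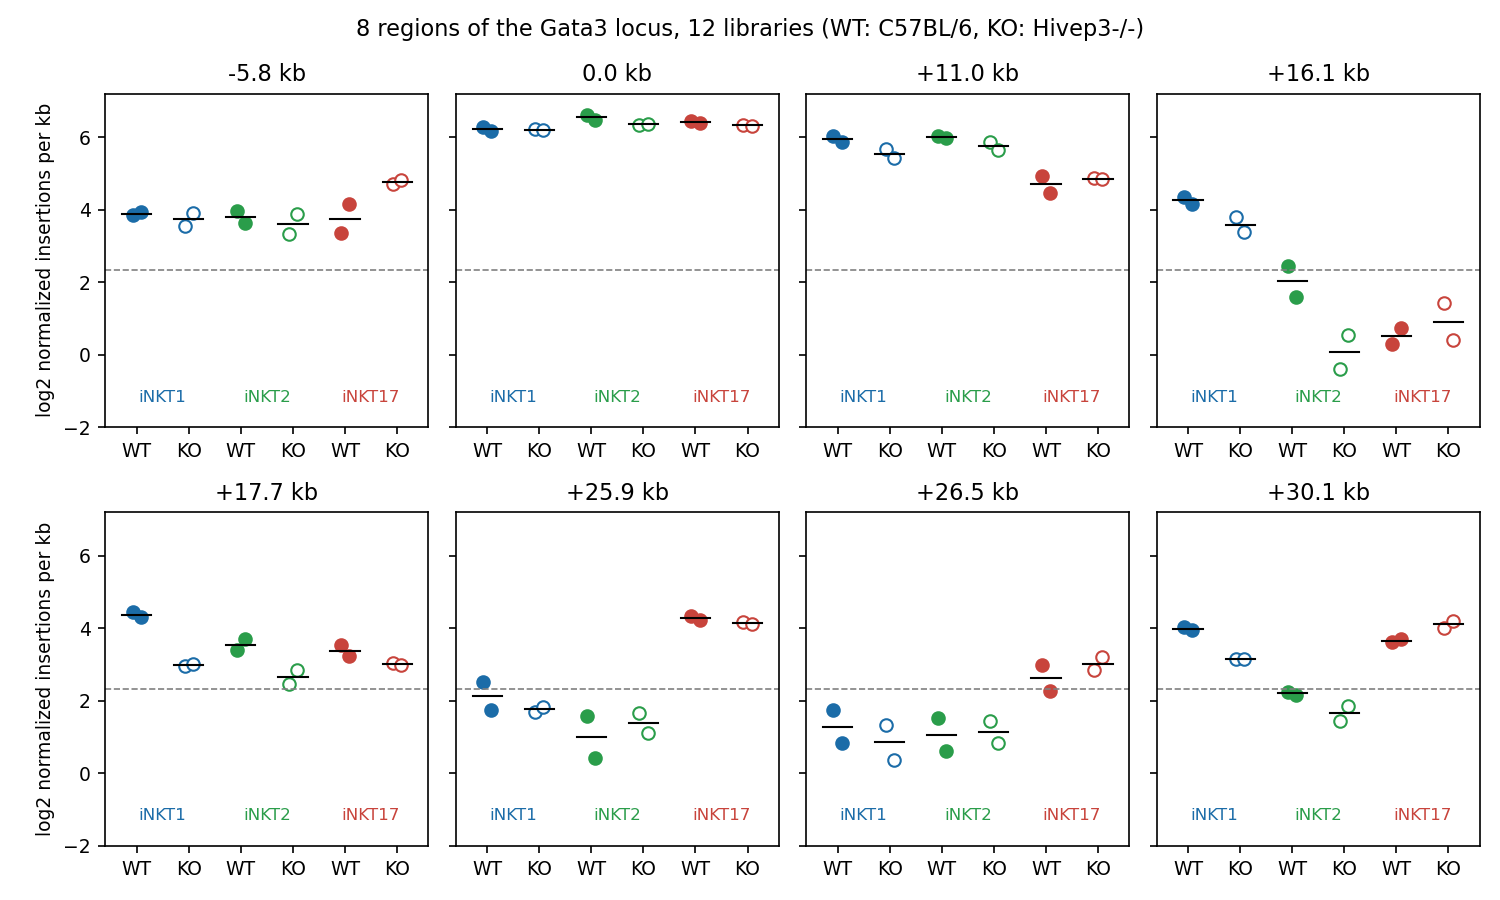
Log2 normalized insertions per kb (vertical axis) of 8 Gata3 regions in each of the 12 libraries, by subset and genotype (WT is C57BL/6, filled; KO is Hivep3-/-, open), with a bar at the mean of 2 libraries and a dashed line at 5 insertions per kb. The promoter stays between 6.16 and 6.62, the +16.1 kb region is above the line in all iNKT1 libraries and 1 C57BL/6 iNKT2 library, the +25.9 kb region stands between 4.10 and 4.33 in iNKT17 libraries, and the +17.7 kb region is lower in Hivep3-/- iNKT1 and iNKT2 libraries.

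Differences between subsets that passed the adjusted p at any fold, the called regions included, were frequent in the whole table. At the locus their share was above that of all tested regions only between iNKT1 and iNKT17 cells, in both genotypes. They were found at 6 of 14 tested regions between C57BL/6 iNKT1 and iNKT2 cells (55.2% of all tested regions), 11 of 16 between iNKT1 and iNKT17 (58.4%) and 6 of 15 between iNKT2 and iNKT17 (52.3%), and in Hivep3-/- cells at 4 of 14 (59.0%), 11 of 16 (56.9%) and 8 of 15 (53.9%). The promoter itself was lower in C57BL/6 iNKT1 than iNKT2 cells by a small step (log2 -0.33 ± 0.08 SE, 1.26-fold, limma adjusted p = 0.00459), with both iNKT1 libraries under both iNKT2 libraries. In Hivep3-/- cells the same difference was -0.14 ± 0.08 (limma adjusted p = 0.168, and 0.0841 with a block for the replicate number). It was also lower in C57BL/6 iNKT1 than iNKT17 cells (-0.20 ± 0.08, 1.15-fold, limma adjusted p = 0.054), which did not pass without C57BL/6 iNKT1 replicate 2 (-0.14, limma adjusted p = 0.271) or C57BL/6 iNKT17 replicate 1 (-0.17, 0.2). Between C57BL/6 iNKT2 and iNKT17 cells the promoter differed by 0.13 ± 0.08 (95% interval -0.05 to 0.31, limma adjusted p = 0.233). Of the other start-near regions, the +5.7 kb region was 2.07-fold higher in iNKT1 than iNKT2 cells of Hivep3-/- mice (1.05 ± 0.20, limma adjusted p = 0.000703), and in C57BL/6 mice this difference was 0.35 ± 0.20 (limma adjusted p = 0.176, and 0.0568 with the block). The -10.8 kb region was 1.52-fold lower in Hivep3-/- iNKT1 than iNKT17 cells (-0.60 ± 0.12, limma adjusted p = 0.000774), while in C57BL/6 cells it differed by -0.13 ± 0.12 (95% interval -0.39 to 0.12, limma adjusted p = 0.378).

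The +11.0 kb region, described after its values were seen, was a strongly open intronic region that was lower in iNKT17 cells. Its levels were 6.02 and 5.87 in C57BL/6 and 5.66 and 5.43 in Hivep3-/- iNKT1 libraries. They were 6.03 and 5.98 against 5.87 and 5.63 in iNKT2 libraries, and 4.93 and 4.47 against 4.87 and 4.83 in iNKT17 libraries. All 4 iNKT17 libraries were below the other 8. In C57BL/6 cells it was 2.36-fold higher in iNKT1 (1.24 ± 0.15 SE, limma adjusted p = 1e-05) and 2.46-fold higher in iNKT2 than in iNKT17 cells (1.30 ± 0.15, limma adjusted p = 9.86e-06). In Hivep3-/- cells the differences were 0.69 ± 0.15 (limma adjusted p = 0.00141) and 0.90 ± 0.15 (limma adjusted p = 0.000229). The next regions towards the start, at +7.2 and +6.6 kb, were also higher in iNKT1 than iNKT17 cells of C57BL/6 mice, by 0.75 ± 0.11 (limma adjusted p = 4.46e-05) and 1.06 ± 0.18 (limma adjusted p = 0.000213). At an adjusted p under 0.1 and any fold, 8 regions of the C57BL/6 locus were higher in iNKT1 than in iNKT17 cells, those at -1.1, +2.5, +5.7, +6.6, +7.2, +11.0, +16.1 and +17.7 kb. The 3 that were lower were the promoter and the regions at +25.9 and +26.5 kb. Over the members tested, the median difference between C57BL/6 iNKT1 and iNKT17 cells was 0.33 (all tested regions 0.01), between iNKT1 and iNKT2 cells 0.16 (0.01) and between iNKT2 and iNKT17 cells 0.14 (0.03). In Hivep3-/- cells these medians were -0.08 (0.02), 0.10 (-0.01) and -0.34 (0.04).

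**Figure D3:**
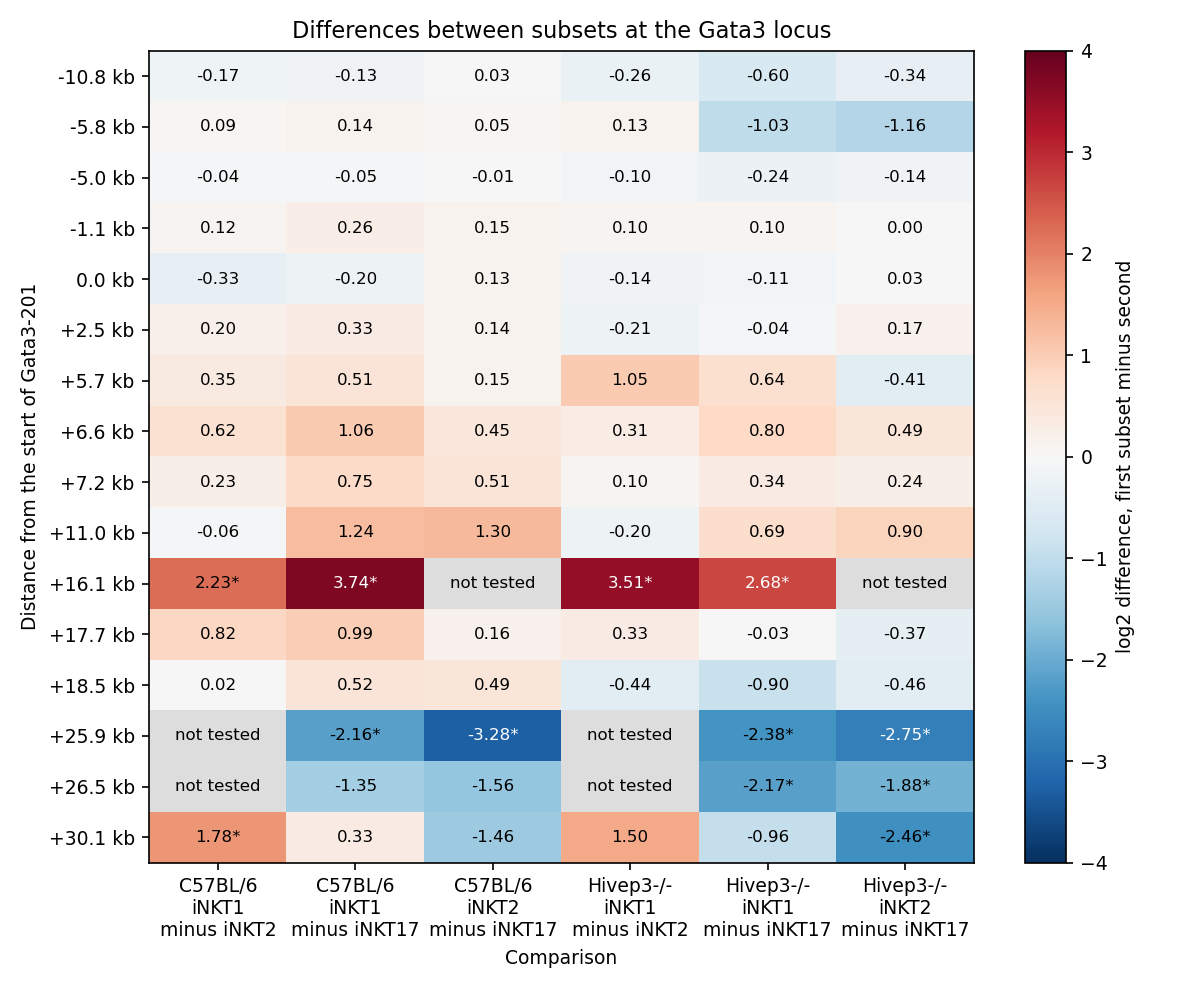
Log2 difference between subsets (colour and printed number, first subset minus second) at each Gata3 region (rows, by distance from the start of Gata3-201) for 6 comparisons (columns), with an asterisk where the region was called and grey where neither group was accessible. The asterisks stand at +16.1, +25.9, +26.5 and +30.1 kb, and the promoter row stays between -0.33 and 0.13.

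The second family asked what loss of Hivep3 changed at the locus within each subset. At 3-fold, 0 of 14 tested regions were called in iNKT1 cells (1.15% of all tested regions), 0 of 12 in iNKT2 cells (1.68%) and 0 of 15 in iNKT17 cells (0.271%). At an unadjusted limma p under 0.05 there were 4, 4 and 3 regions (17.8%, 25.3% and 15.8% of all tested regions). At an adjusted p under 0.1 and any fold, 3 of 14 regions were lower in Hivep3-/- iNKT1 cells (9.42% of all tested regions changed in either direction). In turn 1 of 12 was lower in Hivep3-/- iNKT2 cells (16.4%) and 1 of 15 was higher in Hivep3-/- iNKT17 cells (4.65%). With a block for the replicate number within genotype these counts became 4, 4 and 2. The shares above are of the fit without the block, and shares of all regions with it are not given. In iNKT1 cells 13 of the 14 tested regions had a negative difference (median -0.15, all tested regions -0.02) and in iNKT2 cells 9 of 12 (median -0.16, all tested regions 0.00), while in iNKT17 cells 12 of 15 had a positive one (median 0.15, all tested regions -0.01). The sum of linear levels over the 16 regions was 571.3 and 515.2 insertions per kb in C57BL/6 against 495.9 and 455.3 in Hivep3-/- iNKT1 libraries. It was 520.6 and 458.4 against 459.1 and 448.8 in iNKT2 libraries, and 441.0 and 413.4 against 490.3 and 459.3 in iNKT17 libraries. The genotypes did not overlap in iNKT1 and iNKT17 cells and were close in iNKT2 cells, where C57BL/6 replicate 2 was just below Hivep3-/- replicate 1.

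The changed regions in iNKT1 cells were at the 3′ end of the gene and beyond it. The +17.7, +18.5 and -5.8 kb regions were singled out after their values were seen. The intronic +17.7 kb region had levels of 4.43 and 4.31 in C57BL/6 and 2.95 and 3.02 in Hivep3-/- iNKT1 libraries. They were 3.39 and 3.70 against 2.47 and 2.83 in iNKT2 libraries, and 3.53 and 3.23 against 3.05 and 2.99 in iNKT17 libraries. In every subset both Hivep3-/- libraries were below both C57BL/6 libraries. It was 2.61-fold lower in Hivep3-/- iNKT1 cells (log2 -1.38 ± 0.21 SE, limma adjusted p = 0.00146) and 1.86-fold lower in Hivep3-/- iNKT2 cells (-0.89 ± 0.21, limma adjusted p = 0.0149). The change in iNKT2 cells had an adjusted p of 0.13 in limma without C57BL/6 iNKT2 replicate 2. In iNKT17 cells the difference was -0.36 ± 0.21 with a 95% interval of -0.81 to 0.08 (limma adjusted p = 0.43).

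The +18.5 kb region, next to it, had levels of 3.14 and 3.06 in C57BL/6 against 1.90 and 2.00 in Hivep3-/- iNKT1 libraries. The genotypes were apart in iNKT1 cells, where it was 2.22-fold lower in Hivep3-/- cells (-1.15 ± 0.34 SE, limma adjusted p = 0.0653), and in iNKT2 cells they overlapped, at 3.45 and 2.70 against 2.75 and 2.03. The +30.1 kb region was 1.78-fold lower in Hivep3-/- iNKT1 cells (-0.83 ± 0.20, limma adjusted p = 0.0277). Without any single iNKT1 library the adjusted p of both was 0.1 or more. For the +18.5 kb region it was 0.311 and 0.181 without C57BL/6 replicates 1 and 2 and 0.267 and 0.262 without Hivep3-/- replicates 1 and 2. For the +30.1 kb region it was, in the same order, 0.201, 0.1, 0.171 and 0.189 (limma). With the block for the replicate number the +11.0 kb region (-0.40 ± 0.15) also passed, with an adjusted p of 0.017 in place of 0.152 (limma).

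In iNKT2 cells the difference of the greatest size was at the +16.1 kb region, whose C57BL/6 libraries (2.44 and 1.60) were both above the Hivep3-/- libraries (-0.40 and 0.55). The difference was -1.94 ± 0.43 SE, or 3.85-fold, and was not tested because neither group reached 5 insertions per kb. It was called where every region was tested (limma adjusted p = 0.0126), where the filter asked for a mean of 5 over all libraries (limma adjusted p = 0.0125), and at -2.36 without C57BL/6 iNKT2 replicate 2 (limma adjusted p = 0.025). In iNKT1 cells, where this region is open, the difference was -0.67 ± 0.43 with a 95% interval of -1.60 to 0.26 (limma adjusted p = 0.5). With the block for the replicate number within genotype, the promoter (-0.20 ± 0.08, adjusted p = 0.0543 in place of 0.155), the +5.7 kb region (-0.48 ± 0.20, 0.0327 in place of 0.159) and the +2.5 kb region (0.27 ± 0.12, 0.099 in place of 0.196) also passed in iNKT2 cells (limma).

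In iNKT17 cells the region that changed was at -5.8 kb, in an intron of longer Gata3 transcripts. Its levels were 3.35 and 4.15 in C57BL/6 against 4.71 and 4.82 in Hivep3-/- iNKT17 libraries, and from 3.33 to 3.96 in the 8 other libraries. Both Hivep3-/- iNKT17 libraries were above every other library, and the C57BL/6 replicates were farther apart than those of any other group. The region was 2.03-fold higher in Hivep3-/- iNKT17 cells (1.02 ± 0.26 SE, limma adjusted p = 0.0586). Without C57BL/6 iNKT17 replicate 1 the difference fell to 0.62 (limma adjusted p = 0.418), and without either Hivep3-/- replicate the adjusted p was 0.119 and 0.206 (limma). With the block the +7.2 kb region (0.30 ± 0.11) also passed, with an adjusted p of 0.043 in place of 0.178 (limma). At the downstream regions open in iNKT17 cells the differences between genotypes were -0.14 ± 0.37 at +25.9 kb (95% interval -0.94 to 0.66), 0.39 ± 0.47 at +26.5 kb (-0.61 to 1.40) and 0.45 ± 0.20 at +30.1 kb (0.01 to 0.89, limma adjusted p = 0.301).

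**Figure D4:**
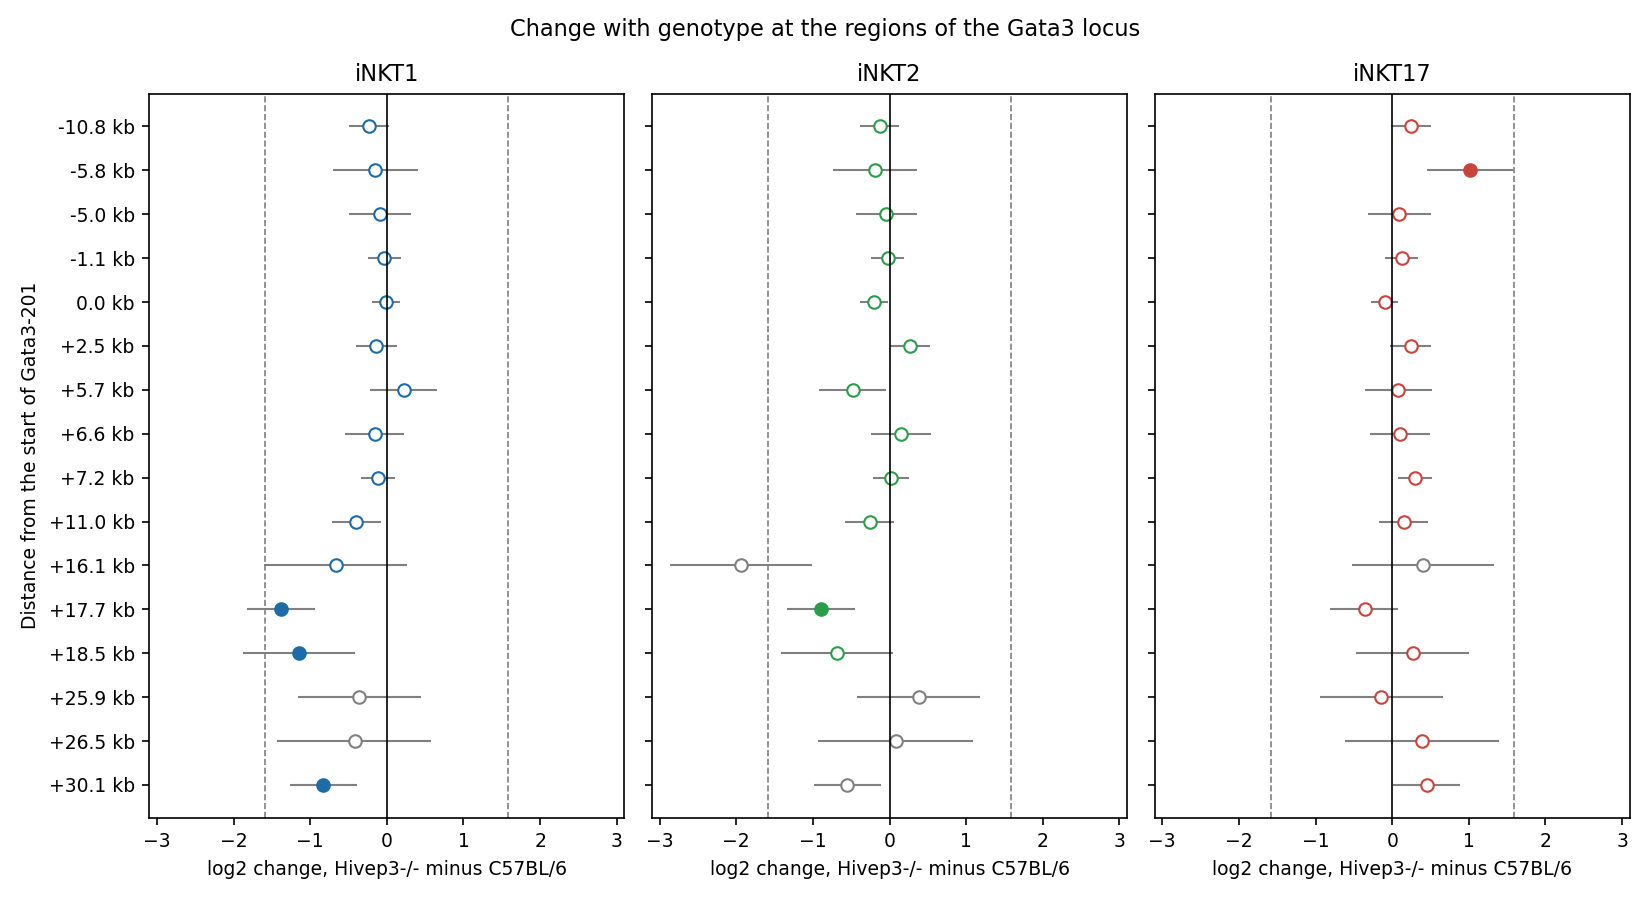
Log2 change with genotype (horizontal axis, Hivep3-/- minus C57BL/6) at each of the 16 Gata3 regions (rows, by distance from the start of Gata3-201) in iNKT1, iNKT2 and iNKT17 cells, with 95% intervals from limma and dashed lines at 3-fold. Filled points passed an adjusted p of 0.1, open coloured points did not and grey points were not tested; the filled points are at +17.7, +18.5 and +30.1 kb in iNKT1, at +17.7 kb in iNKT2 and at -5.8 kb in iNKT17 cells.

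Whether the change with genotype differed between subsets was tested directly. At 3-fold, 0 regions of the locus were called for iNKT1 against iNKT2 (14 tested, 3.06% of all tested regions), iNKT1 against iNKT17 (16 tested, 1.42%) and iNKT2 against iNKT17 (15 tested, 1.02%), and at an unadjusted limma p under 0.05 there were 2, 7 and 3 (20.8%, 14.2% and 14.9% of all tested regions). At any fold the counts were 0 (10.5% of all tested regions), 1 (3.64%) and 0 (3.29%). With the block for the replicate number they were 2, 7 and 2. The shares are of the fit without the block, so the counts with it have no share of all regions to be set against. The region that passed without the block was at +30.1 kb, where the change in iNKT1 minus that in iNKT17 cells was -1.28 ± 0.29 SE (limma adjusted p = 0.0419). Both Hivep3-/- libraries were lower in iNKT1 cells and both were higher in iNKT17 cells. Without C57BL/6 iNKT1 replicate 1, C57BL/6 iNKT17 replicate 1, Hivep3-/- iNKT1 replicate 1 or Hivep3-/- iNKT1 replicate 2 the adjusted p was 0.15, 0.124, 0.152 and 0.162 (limma). At +17.7 kb the changes in iNKT1 and iNKT17 cells differed by -1.02 ± 0.29 (limma adjusted p = 0.102, and 0.0576 with the block), at -5.8 kb by -1.17 ± 0.36 (0.137, and 0.0274 with the block) and at +18.5 kb by -1.42 ± 0.48 (0.178, and 0.048 with the block). The last was called, at -1.81, without Hivep3-/- iNKT17 replicate 2 (limma adjusted p = 0.0913). At the other regions called between subsets the same difference was -1.06 ± 0.61 at +16.1 kb (limma adjusted p = 0.478), -0.22 ± 0.52 at +25.9 kb (0.919) and -0.82 ± 0.66 at +26.5 kb (0.657).

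Genes that act with or under GATA3 gave the setting of the locus. A list of 29 such genes had regions at 27 (none at Gata1 or Gata5), 337 in all, each counted over the gene and its flanks of 10 kb. Of the 7 genes known to act on Gata3 in T cells, 7 of 145 tested regions were lower in Hivep3-/- iNKT1 cells and 0 higher (4.83%, all tested regions 1.15%), and 6 of the 7 were at Zbtb16, which had 68 tested regions. In iNKT2 cells 2 of 163 were higher and 1 lower (1.84%, all tested regions 1.68%), and in iNKT17 cells 0 of 152 were called (all tested regions 0.271%). Zbtb16 encodes PLZF, the factor that sets the iNKT programme (-2.23 ± 0.29 SE at its region of the largest change, limma adjusted p = 0.00056). The other call in iNKT1 cells was at Satb1, a chromatin organiser of thymocytes (-1.88 ± 0.22, limma adjusted p = 0.000287). Of the GATA3 targets and genes of its programme 2 of 71 were lower in Hivep3-/- iNKT1 cells (2.82%, all tested regions 1.15%), at Il4 and at the coreceptor gene Cd4 (-1.91 ± 0.35 at Cd4, limma adjusted p = 0.00559), and 0 of 73 and 0 of 70 were called in iNKT2 and iNKT17 cells. Of the GATA family 0 of 5, 2 of 6 and 0 of 7 regions were called in iNKT1, iNKT2 and iNKT17 cells (all tested regions 1.15%, 1.68% and 0.271%). Both were lower in Hivep3-/- iNKT2 cells and at Gata4 (-1.95 ± 0.19 at that of the largest change, limma adjusted p = 9.69e-05). Among partners and antagonists of GATA3 the calls were 0 of 69, 1 of 60 (lower, 1.67% against 1.68% of all tested regions) and 0 of 65.

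Between C57BL/6 subsets 16.0% of all tested regions were called for iNKT1 against iNKT2, 20.5% for iNKT1 against iNKT17 and 16.2% for iNKT2 against iNKT17 cells. In the same order the partners and antagonists had 13 of 69 (18.8%), 31 of 81 (38.3%) and 27 of 73 (37.0%) called. The genes that act on Gata3 had 28 of 163 (17.2%), 20 of 162 (12.3%) and 13 of 163 (7.98%), and the GATA family 0 of 6, 1 of 7 and 0 of 7. Tbx21, which encodes T-bet, had 7 of 12 tested regions higher and 0 lower in iNKT1 than iNKT17 cells (7.70 ± 0.74 SE at its region of the largest change, limma adjusted p = 1.32e-06). Runx3, a Runt factor of cytotoxic cells, had 4 of 22 higher and 2 lower (5.37 ± 0.93 at that of the largest change, limma adjusted p = 0.000246). Zbtb16 had 9 of 83 lower and 0 higher (-4.59 ± 0.79, limma adjusted p = 0.000229), a share below the 20.5% of all tested regions. The regions of the Gata3 targets were called at 10 of 78 (12.8%), 15 of 74 (20.3%) and 19 of 77 (24.7%). Of these 2 were higher and 8 lower in iNKT1 than iNKT2 cells, 11 higher and 4 lower in iNKT1 than iNKT17 cells, and 14 higher and 5 lower in iNKT2 than iNKT17 cells. In Hivep3-/- mice Il4, the cytokine gene under GATA3 control, had 11 of 14 tested regions higher and 0 lower in iNKT2 than iNKT17 cells (4.49 ± 0.45, limma adjusted p = 3.62e-06). Of all tested regions 15.6% were called in that comparison. The same direction was seen in C57BL/6 mice, where Il4 had 8 of 14 higher and 0 lower (all tested regions 16.2%).

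The mean log2 level over the 16 regions gave a single pattern over the 12 libraries. The C57BL/6 iNKT1 libraries came first with 4.62 and 4.40, then the Hivep3-/- iNKT17 libraries with 4.43 and 4.25, those of Hivep3-/- iNKT1 with 4.19 and 4.08, those of C57BL/6 iNKT17 with 4.18 and 4.08, those of C57BL/6 iNKT2 with 4.23 and 3.89 and last those of Hivep3-/- iNKT2 with 3.78 and 3.77. In this order neighbouring groups overlapped, except that both Hivep3-/- iNKT17 libraries were above both Hivep3-/- iNKT1 libraries and both C57BL/6 iNKT2 libraries above both Hivep3-/- iNKT2 libraries. The iNKT2 groups were thus at the low end of the order by mean log2 level, and no test was made of this mean. The order depended on the measure. By the sum of linear levels the C57BL/6 iNKT2 libraries (520.6 and 458.4) were above the C57BL/6 iNKT17 libraries (441.0 and 413.4). In Hivep3-/- mice the iNKT2 libraries (459.1 and 448.8) stayed just below the iNKT17 libraries (490.3 and 459.3). Of 12438 genes with at least 5 regions in the same window, the patterns most like it were those of Gm7075 (Pearson r = 0.932 over 12 libraries), Rin3 (r = 0.904), Ints13 (r = 0.902), Hoxd13 (r = 0.902) and Adamtsl4 (r = 0.890). These values are a description over libraries that share their subset and may share a pool, and with rank correlation or a window of 10 kb 0 of the 5 genes were named again.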

How the data were processed

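Per the paper's methods, the authors trimmed reads to 50 bp (Trimmomatic 0.39 in the submitters' processing notes), mapped them to mm10 with the ENCODE ATAC-seq pipeline, merged the peaks of all replicates into 500 bp regions, counted transposase insertions with chromVAR and normalized with voom. The deposited values are log2 of the authors' normalized insertions per kb. Their linear sums are nearly equal (1915051 to 1919037) and their upper quantiles shared, from which quantile normalization between libraries was inferred; depth was thus not read.

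All 12 columns were mapped to samples by name. limma 3.58.1 (R 4.3.3) was fitted to the 6 group means with an intensity trend (6 residual and 7.17 prior degrees of freedom). A region was tested where either group had a linear mean of at least 5, and called at an adjusted p under 0.1 and 3-fold, as in the study's methods. The script was tested on simulated data. Coordinates are 1-based (GRCm38.p6, GENCODE vM21); sequences were read with samtools 1.23.1 and pysam 0.24.0, and the promoter stretch also stands in the RefSeq promoter table. Tables were handled with pandas 2.3.3 and numpy 2.4.6.

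Regions described singly were those within 1000 bp of a Gata3 transcript start, the one with the highest mean, and the called ones; of the related genes the 4 with the most calls per family of comparisons, each at its called region of the largest change. Of these, 1 gene and 1 sequence, and of the motifs searched 1 set of letters, are not reported here. The member regions, gene lists and thresholds were chosen with earlier results of these data known.

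The 3 subsets of a genotype and number may come from 1 pool of thymi, as their titles share a mouse number. Deviations from the group mean over all regions correlated between same-numbered libraries of a genotype at r = 0.120 to 0.167 and between genotypes at 0.171, 0.145 and 0.113, so fits with a replicate block were added. Within groups, replicates correlated at r = 0.963 to 0.986 and held no duplicate library. The single-cell RNA data of the study were not used here.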

Additional observations from a re-analysis of the deposited data

Results flagged for a closer look

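The change with genotype at the +30.1 kb region differed between iNKT1 and iNKT17 cells by -1.28 ± 0.29 SE on the log2 scale (limma adjusted p = 0.0419). It was singled out because a test of the difference itself passed. In the same values, the Hivep3-/- iNKT1 and Hivep3-/- iNKT17 libraries moved away from their C57BL/6 counterparts in opposite directions. Over all alternatives the difference ran from -1.38 to -0.92 and its adjusted p from 0.0074 to 0.162. No group held enough libraries for a search for outlying ones.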

How the results depend on the processing

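With 2 libraries a group and a normalized table, low regions carry the least reliable fold changes, and a zero count cannot be told from the lowest value. No called difference changed direction under any alternative. Counts of called regions below follow the order in which each comparison is named. With a 2-fold threshold they became 2 (Hivep3-/- against C57BL/6 in iNKT1) and 1 (iNKT17), 5 and 4 (C57BL/6 iNKT1 and iNKT2 against iNKT17), 3 (Hivep3-/- iNKT1 against iNKT2) and 1 (change in iNKT1 against change in iNKT17). With no fold threshold they were 3, 1 and 1 for genotype in iNKT1, iNKT2 and iNKT17, 6, 11 and 6 for C57BL/6 subsets, 4, 11 and 8 for Hivep3-/- subsets and 1 for the change in iNKT1 against iNKT17. With 100 kb on either side, 5 and 3 (C57BL/6 against iNKT17) and 3 and 5 (Hivep3-/- iNKT1 against iNKT2 and iNKT17). With no filter, and likewise with a mean of 5 over all libraries, 1 for genotype in iNKT2 and 1 for the change in iNKT2 against iNKT17, both the +16.1 kb region (-1.94 and -2.34). After adding 5 to the linear values, 0 and 1 remained for C57BL/6 iNKT1 against iNKT2 and iNKT17 and 0, 0 and 0 for the Hivep3-/- subsets, since the constant shrinks changes of low regions; adding 1 lost only the +26.5 kb region between Hivep3-/- iNKT2 and iNKT17 cells (-1.50). Of the genes most like the locus 0 were shared with a 10 kb window and 0 with Spearman. Leaving out 1 library gave 0 to 0, 0 to 1 and 0 to 0 for genotype, 2 to 2, 2 to 3 and 1 to 2 for C57BL/6 subsets, 1 to 2, 3 to 3 and 2 to 3 for Hivep3-/- subsets and 0 to 0, 0 to 1 and 0 to 1 for differences of change. The replicate block left every count at 3-fold as it was (0, 0 and 0; 2, 2 and 1; 1, 3 and 3; 0, 0 and 0). An adjusted p under 0.05 and a fit of only the libraries compared left every count within 1.5 times.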

Other observations

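A region outside the 50 kb window, chr2:9801321-9801820 and 77.0 kb downstream of the Gata3-201 start, was seen while a wider window was tried and was picked for its values. Its log2 levels were 6.63 and 6.82 in C57BL/6 and 6.54 and 6.47 in Hivep3-/- iNKT1 libraries, 5.26 and 5.19 against 3.76 and 4.02 in iNKT2 libraries, and 2.67 and 2.70 against 2.81 and 2.79 in iNKT17 libraries. The levels of the 3 subsets did not overlap in either genotype, and in C57BL/6 cells iNKT1 was 16.5-fold higher than iNKT17 (log2 4.04 ± 0.14 SE, limma adjusted p = 3.87e-10). In iNKT2 cells the Hivep3-/- libraries were 2.52-fold lower (-1.33 ± 0.14, limma adjusted p = 0.000133). The change in iNKT1 minus that in iNKT2 cells was 1.11 ± 0.19 (limma adjusted p = 0.00554), and the change in iNKT2 minus that in iNKT17 cells was -1.45 ± 0.19 (limma adjusted p = 0.00486). The table does not say which gene the region belongs to.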
